A study of Homo sapiens with 66 samples.

Results

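10 genes are described here that carry glucose into the cell and set how it is used, namely SLC2A1, SLC2A3, HK1, HK2, HK3, PFKFB3, PFKFB4, PKM, LDHA and PDK1. They were chosen by symbol, with earlier results of these data known, and all 10 were found among the 57992 gene identifiers analysed. Glucose enters through transporters such as GLUT1 and GLUT3, the products of SLC2A1 and SLC2A3, and is trapped by the hexokinases encoded by HK1, HK2 and HK3. The PFKFB enzymes set the level of a sugar phosphate that activates phosphofructokinase, the committing step of glycolysis. Pyruvate kinase, from PKM, then yields pyruvate, which lactate dehydrogenase A (LDHA) turns into lactate. Pyruvate dehydrogenase kinase, the product of PDK1, inhibits pyruvate dehydrogenase and so holds back the oxidation of pyruvate in mitochondria. Leukaemic blasts are known for rapid glycolysis in the presence of oxygen.

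RNA was sequenced from 11 human acute myeloid leukaemia (AML) cell lines, which the labels spell F36P, HL60, KASUMI1, MOLM13, MONOMAC6, MV411, NB4, NOMO1, OCIAML2, OCIAML3 and THP1. Each cell line was kept in medium alone (untreated) or in medium with etoposide, a poison of topoisomerase II, for 24 hours, and each of the 22 groups holds 3 libraries described as biological replicates. The concentration of etoposide was the cell line's own IC50, set with a dye that reads metabolic activity. This concentration differed between cell lines and cannot be told apart from the cell line. Growth medium, serum and supplements also differed, among them a colony-stimulating factor listed for F-36P and insulin and pyruvate for MONO-MAC-6. They cannot be told apart from the cell line either. RNA of each library came from 3 pooled wells of bulk culture, so fewer cells with a transcript and less transcript per cell cannot be told apart. The study discarded the etoposide data of OCI-AML2 for failed read quality. OCI-AML2 is therefore shown beside the others and left out of every total over 10 cell lines.

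Reads on genes ranged from 17997404 to 24101670 per library, with a median of 20241014. In every line the untreated libraries held PTPRC, CD33 and SPI1, genes of leukocytes and myeloid cells, at 32.5 CPM (read counts scaled to library size) or more. F-36P stood apart, with MPO and CEBPA below 1 CPM and the erythroid genes GATA1 and HBG2 at 253 and 5417 CPM. Not all markers went with myeloid cells in the other lines. The T cell gene CD3D had 156 CPM in NOMO-1 and the epithelial gene EPCAM 81.9 CPM in KASUMI-1. The myeloid gene LYZ was as low as 2.65 CPM in HL-60. GATA1 reached 1 CPM in 3 of the 11 lines and the monocytic gene CD14 in 4. The number of genes with a read went from 20999.0 to 21285.0 in untreated to 29738.0 to 30168.0 in etoposide-treated F-36P, and from 19654.0 to 19932.0 to 24884.0 to 25445.0 in KASUMI-1. In the other lines it lay between 19018 and 22977. Its part in the results for F-36P and KASUMI-1 was not tested.

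By GENCODE on GRCh38 the transporter genes lie at chr1:42925353-42958893 and chr12:7919230-8019007, both on the minus strand. The hexokinase genes lie at chr10:69269984-69401884 (HK1, plus), chr2:74834127-74893359 (HK2, plus) and chr5:176880869-176899346 (HK3, minus). PFKFB3 lies at chr10:6144934-6254644 (plus) and PFKFB4 at chr3:48517684-48562015 (minus). PKM lies at chr15:72199029-72231819 (minus), LDHA at chr11:18394560-18408425 (plus) and PDK1 at chr2:172555373-172608669 (plus). The kit keeps the strand of the RNA, but which strand setting was counted is not given in the sources used here. HK3 (UNC5A), HK1 (RPS15AP28), PDK1 (PDK1-AS1) and SLC2A1 (an unnamed gene) are overlapped by exons on the other strand. Some reads of these members and of the overlapping genes may thus not be separated. PFKFB4 overlaps UCN2 on the same strand, and SLC2A3 has a near-identical copy in SLC2A14, so reads that fit either gene are uncertain. LDHA and PKM have processed pseudogenes that can take reads in the same way. Counts per gene do not separate the M1 and M2 forms of PKM.

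The promoters of 4 members are shown because these genes fell (LDHA, HK2, PDK1) or rose (HK3) in more cell lines than the other members. Each window runs from 250 bases before to 50 bases after a RefSeq start on GRCh38.p14, the one nearest to the start of the MANE Select transcript, and is printed 5′ to 3′ on the gene's strand. Capitals mark ACGTG on either strand (CACGT when read on the other), the core of the hypoxia response element.
LDHA promoter (chr11:18394313-18394612, plus strand): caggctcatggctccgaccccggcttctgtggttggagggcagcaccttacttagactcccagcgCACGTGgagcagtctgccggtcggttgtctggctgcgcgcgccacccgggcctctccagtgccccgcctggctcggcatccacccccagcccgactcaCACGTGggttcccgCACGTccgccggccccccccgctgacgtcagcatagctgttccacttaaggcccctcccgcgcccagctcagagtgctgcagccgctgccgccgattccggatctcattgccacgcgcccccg
HK2 promoter (chr2:74833877-74834176, plus strand): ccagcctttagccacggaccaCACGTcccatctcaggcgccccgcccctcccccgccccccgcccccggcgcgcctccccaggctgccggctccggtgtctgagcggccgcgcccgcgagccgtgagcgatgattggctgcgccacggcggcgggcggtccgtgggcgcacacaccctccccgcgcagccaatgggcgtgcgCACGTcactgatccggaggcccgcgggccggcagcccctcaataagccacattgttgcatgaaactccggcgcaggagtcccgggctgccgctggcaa
PDK1 promoter (chr2:172555840-172556139, plus strand): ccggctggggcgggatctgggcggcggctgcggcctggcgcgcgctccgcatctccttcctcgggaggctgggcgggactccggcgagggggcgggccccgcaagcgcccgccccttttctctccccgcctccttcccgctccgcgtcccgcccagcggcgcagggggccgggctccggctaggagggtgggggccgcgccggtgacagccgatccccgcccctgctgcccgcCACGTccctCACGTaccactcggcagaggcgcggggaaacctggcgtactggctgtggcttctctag
HK3 promoter (chr5:176899297-176899596, minus strand): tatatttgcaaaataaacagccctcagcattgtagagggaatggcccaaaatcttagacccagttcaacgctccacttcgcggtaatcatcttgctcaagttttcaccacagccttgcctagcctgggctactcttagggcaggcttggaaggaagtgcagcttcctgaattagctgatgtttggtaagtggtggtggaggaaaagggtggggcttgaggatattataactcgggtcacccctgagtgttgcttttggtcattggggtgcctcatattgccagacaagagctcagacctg

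A window was matched for 9 of the 10 members, all but SLC2A3. LDHA held 5 matches to ACGTG over both strands, which include 2 E-boxes (CACGTG), each counted once on either strand. The first of them began at position -185 from the start and the last at -73, with the start counted as 0. HK2 held 2 matches, at -229 and -48, and PDK1 2, at -17 and -8, and neither window held an E-box. PFKFB3 held 2 matches in 1 E-box. The windows of HK1, HK3, SLC2A1, PFKFB4 and PKM held none. That makes 4 of 9 windows with ACGTG and 2 with CACGTG, against 23.9% and 8.95% of 14569 windows chosen in the same way. The GC box GGGCGG, searched on both strands, was in 7 of 9 windows, against 62.7% of all, and was missing from the windows of LDHA and HK3. LDHA and HK2 are GC-rich here (70% and 74.3%), as is PDK1 (77%), while the HK3 window has 49% G and C. A match describes letters in a window and says nothing of binding.

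After etoposide, LDHA fell in 10 of 10 cell lines and HK2 and PDK1 in 9 of 10 each, and HK3 rose in 8 of the 9 lines in which it could be tested, in 2 of which it was near 0 without etoposide. Genes are said here to rise or fall at a false discovery rate (FDR) below 0.05 in edgeR's quasi-likelihood test of the 3 etoposide against the 3 untreated libraries of a line, adjusted over all genes tested. Of 100 pairs of member and line, 99 were tested, of which 22 rose, 52 fell and 25 did neither. The background was 27.7% rising and 24.4% falling among 143149 tests of all genes in the same lines, against 22.2% and 52.5% for the members. Scaled by library size alone, in place of edgeR's TMM factors, 30 pairs rose and 45 fell. More than 2-fold, 11 pairs rose and 23 fell, against 11.1% and 3.96% of all genes. The median log2 fold change over the 99 pairs was -0.34 and that of all genes 0.01. Without F-36P, 20 pairs rose and 46 fell of 90. The p-values measure the spread between the 3 replicates of a line.

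**Figure D1:**
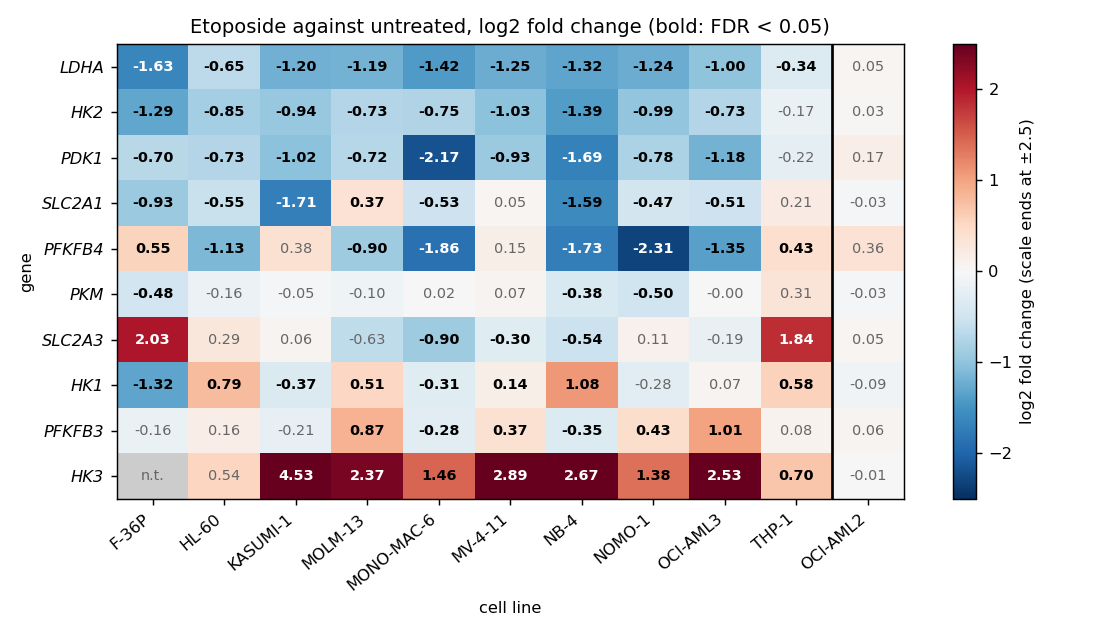
Log2 fold change of each gene (rows) with etoposide in each cell line (columns), red for higher and blue for lower, with OCI-AML2 right of the line, bold for an FDR below 0.05 and n.t. for not tested. LDHA is blue in all 10 lines left of the line, from -0.34 in THP-1 to -1.63 in F-36P, and HK3 is red, up to 4.53 in KASUMI-1.

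SLC2A1, which encodes the widely expressed transporter GLUT1, had its highest level among untreated cells in MONO-MAC-6 with 200.3 ± 13.2 CPM (mean ± SD, n = 3), followed by THP-1 at 196 ± 5.62, NB-4 at 169 ± 10.5, F-36P at 159 ± 26.7, OCI-AML3 at 112 ± 3.56, MV-4-11 at 99.9 ± 0.96, MOLM-13 at 95.02 ± 7.32, HL-60 at 69.4 ± 5.01, KASUMI-1 at 67.5 ± 4.17, NOMO-1 at 61.3 ± 4.59 and OCI-AML2 at 43.5 ± 2.398 CPM. CPM for basal levels were scaled over the 33 untreated libraries. 4 of the 10 neighbouring pairs in that order differed (edgeR, FDR below 0.05), namely THP-1 over NB-4, F-36P over OCI-AML3, MOLM-13 over HL-60 and NOMO-1 over OCI-AML2, and the other neighbours did not pass the test. Over the 10 members 41 of 100 neighbouring pairs differed, which are the closest pairs by construction, and 469 of the 550 pairs of any 2 lines (85.3%). Of all genes, 66.8% of the tests between any 2 untreated lines passed. In this fit all 10 members differed among the 11 lines, as did 99.4% of all genes tested, so this says little of the members. The level of SLC2A1 spanned 4.61-fold between the highest and the lowest line.

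With etoposide SLC2A1 fell in 7 of 10 lines and rose in MOLM-13. The largest fall was in KASUMI-1, where the untreated libraries held 66.7, 64.002 and 71.3 CPM and the etoposide libraries 20.6, 21.96 and 19.4 CPM (log2 fold change -1.71, SE 0.09, edgeR FDR 7.51e-07). NB-4 went from 169, 174 and 192 CPM to 59.1, 57.5 and 60.9 CPM (log2 fold change -1.59, SE 0.09, edgeR FDR 1.62e-09). In these lines the groups lay far apart. In MOLM-13 the values were 83.9, 92.1 and 97.8 CPM without and 102, 126 and 125 CPM with etoposide, so the groups did not overlap (log2 fold change 0.37, SE 0.10, edgeR FDR 0.00782). MV-4-11 gave 0.05 (FDR 0.467) and THP-1 0.21 (FDR 0.255), where replicate 2 of the etoposide group stood at 285 CPM against 207 and 206 CPM in the others. In the test for a difference in response among lines, SLC2A1 had the highest interaction F of the members (42.99 with 9 degrees of freedom, edgeR FDR 3.95e-19). F also depends on the spread of replicates, and the SD of the response over lines was larger for PFKFB4, HK3, SLC2A3 and HK1.

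SLC2A3 encodes GLUT3, a transporter of high affinity. Its basal level was highest in NB-4 with 146 ± 48.7 CPM (mean ± SD, n = 3), followed by MOLM-13 at 130.1 ± 57.95, MONO-MAC-6 at 129 ± 9.75, OCI-AML3 at 77.9 ± 7.005, OCI-AML2 at 58.9 ± 1.67, F-36P at 52.5 ± 7.75, KASUMI-1 at 45.3 ± 2.91, HL-60 at 42.02 ± 9.05, NOMO-1 at 32.2 ± 4.75, MV-4-11 at 16.6 ± 1.97 and THP-1 at 0.962 ± 0.191 CPM. THP-1 was thus far below every other line, and 3 neighbouring pairs differed, namely MONO-MAC-6 over OCI-AML3, NOMO-1 over MV-4-11 and MV-4-11 over THP-1. Replicates of NB-4 and MOLM-13 were far apart, between 103 and 207 CPM in untreated NB-4 and between 67.5 and 179 CPM in untreated MOLM-13 on the scale of each line.

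Etoposide raised SLC2A3 more than 2-fold in 2 lines. F-36P held 55.1, 47.03 and 64.8 CPM untreated and 226, 211 and 245 CPM with etoposide (log2 fold change 2.03, SE 0.14, edgeR FDR 3.17e-06). THP-1 held 1.15, 0.773 and 1.04 CPM and 3.96, 3.302 and 3.4004 CPM (log2 fold change 1.84, SE 0.24, edgeR FDR 1.74e-05). In both lines the groups did not overlap. The gene fell in MONO-MAC-6, from 127, 129 and 146 CPM to 75.5, 71.3 and 69.3 CPM (log2 fold change -0.90, SE 0.06, edgeR FDR 2.05e-07), and by less in MV-4-11 (-0.30, FDR 0.0138) and NB-4 (-0.54, FDR 0.0121). The groups overlapped in NB-4 and not in MV-4-11 or MONO-MAC-6. Without replicate 3 of untreated NB-4 the call was lost (-0.29, FDR 0.0816), and in MV-4-11 it was lost without untreated replicate 1 (FDR 0.0688) or 2 (FDR 0.0643). The replicate numbers of NB-4 and of MOLM-13 were taken to pair their libraries. With the replicate number as a block SLC2A3 gave -0.49 in NB-4 (edgeR FDR 0.00118). In MOLM-13 SLC2A3 gave -0.63 (FDR 0.0932) without and -0.57 (FDR 0.000526) with the replicate number as a block. SLC2A3 also passed there without untreated replicate 1 (-0.94, FDR 0.00636). Against the mean of the other 9 lines, the response was higher in F-36P (difference in log2 fold change 2.08, FDR 3.26e-12) and THP-1 (1.87, FDR 6.59e-05) and lower in MONO-MAC-6 (-1.23, FDR 6.23e-06), MOLM-13 (-0.86, FDR 0.000685) and NB-4 (-0.77, FDR 0.00288). Of all genes, 22% of such tests passed, against 51 of 100 for the members, and by line the share of all genes was 33.5% in F-36P, 17.1% in HL-60, 30% in KASUMI-1, 25% in MOLM-13, 15.9% in MONO-MAC-6, 13.2% in MV-4-11, 19.5% in NB-4, 23.8% in NOMO-1, 16.5% in OCI-AML3 and 25.3% in THP-1.

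Per kilobase of exon, SLC2A1 made up 63.9% of the summed level of the 2 transporters at the median of 10 untreated lines and 56.999% after etoposide. The share of SLC2A1 went down in 7 lines and up in 3. In F-36P it went from 76.7% ± 3.91 to 29.8% ± 1.97 (SD, n = 3), so that SLC2A3 became the more abundant of the pair. KASUMI-1 moved the same way, from 62.01% ± 1.4996 to 32.4% ± 1.28, and so did NB-4, from 56.8% ± 6.998 to 38.1% ± 0.756. MOLM-13 moved the other way, from 46.4% ± 10.3 to 62.03% ± 3.94. In THP-1 nearly all of the pair was SLC2A1, 99.6% ± 0.0781 to 98.6% ± 0.34. These shares were computed per library and carry no test. A share of SLC2A3 can grow without a rise of SLC2A3. Its level rose in F-36P, did not pass in KASUMI-1 (log2 fold change 0.06, edgeR FDR 0.529) and fell in NB-4 (-0.54, edgeR FDR 0.0121).

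HK1 encodes the hexokinase of most tissues, which is abundant in red cells. The highest basal level was in F-36P with 1100.1 ± 80.6 CPM (mean ± SD, n = 3), followed by MONO-MAC-6 at 176 ± 2.49, OCI-AML3 at 153 ± 3.59, OCI-AML2 at 151 ± 6.27, MV-4-11 at 126 ± 4.17, NOMO-1 at 109.9 ± 9.45, KASUMI-1 at 106 ± 2.92, THP-1 at 52.2 ± 3.52, MOLM-13 at 35.99 ± 1.81, NB-4 at 13.4 ± 8.91 and HL-60 at 9.24 ± 0.419 CPM. F-36P, the line with erythroid genes, held 119 times the level of HL-60. 5 neighbouring pairs differed, F-36P over MONO-MAC-6, KASUMI-1 over THP-1, THP-1 over MOLM-13, MOLM-13 over NB-4 and NB-4 over HL-60, while the 6 lines from MONO-MAC-6 to KASUMI-1 formed a run without a differing neighbour. The 3 untreated NB-4 libraries were 5.13, 13.4 and 24.004 CPM on the scale of that line, the widest spread of HK1 in any of the 22 groups.

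The response of HK1 went both ways, with 5 lines rising and 3 falling. The fall was above 2-fold in F-36P, where 1207, 1132 and 1149.9 CPM became 453, 478 and 464 CPM (log2 fold change -1.32, SE 0.09, edgeR FDR 3.58e-06). KASUMI-1 (-0.37, FDR 0.0017) and MONO-MAC-6 (-0.31, FDR 5.39e-05) fell by less. The rise in NB-4 went from 5.13, 13.4 and 24.004 CPM to 28.1, 30.4 and 30.7 CPM (log2 fold change 1.08, SE 0.31, edgeR FDR 0.00768), and DESeq2 gave an adjusted p of 0.113 for it. The replicate numbers of NB-4 were taken to pair its libraries, and with them as a block HK1 gave 1.21 there (edgeR FDR 0.000273). HL-60 rose from 10.3, 10.02 and 9.41 CPM to 19.6, 18.1 and 13.7 CPM (log2 fold change 0.79, SE 0.15, edgeR FDR 0.00126). The groups did not overlap in any of these lines. MOLM-13 (0.51), THP-1 (0.58) and MV-4-11 (0.14) also rose, and in MV-4-11 the call (FDR 0.0289) was lost without each untreated replicate in turn or without etoposide replicate 2 or 3, with an FDR of up to 0.172.

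HK2 encodes the inducible hexokinase that binds mitochondria and is known as the main form of many tumours. Untreated cells had the highest level in NB-4 with 399 ± 41.1 CPM (mean ± SD, n = 3), followed by MONO-MAC-6 at 283 ± 12.2, OCI-AML3 at 271 ± 11.7, KASUMI-1 at 213 ± 5.86, HL-60 at 196 ± 10.9, OCI-AML2 at 195 ± 10.4, MV-4-11 at 167 ± 12.4, F-36P at 128 ± 13.98, MOLM-13 at 126 ± 1.31, NOMO-1 at 113 ± 9.38 and THP-1 at 33.9 ± 1.44 CPM. 5 neighbouring pairs differed, NB-4 over MONO-MAC-6, OCI-AML3 over KASUMI-1, OCI-AML2 over MV-4-11, MV-4-11 over F-36P and NOMO-1 over THP-1, and THP-1 stood apart at the low end.

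HK2 fell with etoposide in 9 of 10 lines, all but THP-1, and in F-36P, NB-4 and MV-4-11 by more than 2-fold. NB-4, with the highest level, held 389, 398 and 473 CPM untreated and 166, 153 and 160.2 CPM with etoposide (log2 fold change -1.39, SE 0.09, edgeR FDR 1.09e-08). F-36P went from 145, 129 and 129.9 CPM to 57.3, 48.8 and 58.8 CPM (log2 fold change -1.29, SE 0.12, edgeR FDR 1.58e-05) and MV-4-11 from 191, 180.1 and 165 CPM to 88.6, 96.8 and 76.6 CPM (log2 fold change -1.03, SE 0.07, edgeR FDR 8.47e-11). In all 9 lines every etoposide library lay below every untreated library. The other 6 falls lay between -0.73 in MOLM-13 and -0.99 in NOMO-1. THP-1 held 36.3, 33.4 and 34.9 CPM and 31.8, 30.2 and 30.96 CPM, lower in each etoposide library, and the difference did not pass the test (log2 fold change -0.17, SE 0.13, edgeR FDR 0.323). The response of THP-1 was higher than the mean of the other 9 lines (0.82, FDR 9.51e-08), and those of NB-4 (-0.54, FDR 9.31e-05) and F-36P (-0.43, FDR 0.000958) were lower. None of the 9 calls was lost under any alternative run, which include each library left out in turn and DESeq2.

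**Figure D2:**
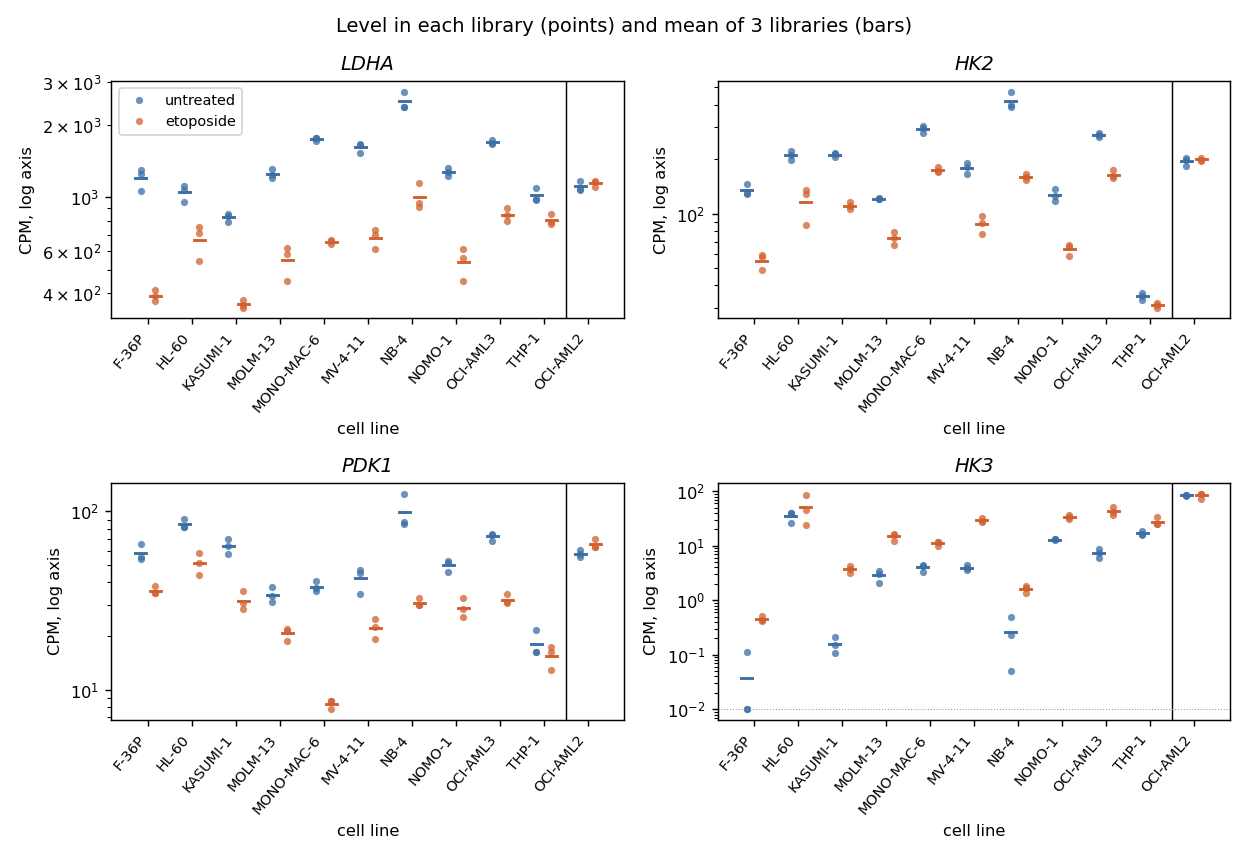
Level in CPM, on a log axis, of LDHA, HK2, PDK1 and HK3 in each library (points) and as the mean of 3 (bars), untreated in blue and etoposide in orange, with a level of 0 drawn at 0.01 and OCI-AML2 right of the line. The orange points lie below the blue ones for LDHA in all 10 lines left of the line, while for HK3 they lie above in every one of these lines but HL-60, where the groups overlap.

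HK3 encodes a hexokinase known from granulocytes and monocytes. Its untreated level was highest in OCI-AML2 with 84.2 ± 2.21 CPM (mean ± SD, n = 3), followed by HL-60 at 32.7 ± 7.18, THP-1 at 16.6 ± 1.6997, NOMO-1 at 11.6 ± 0.289, OCI-AML3 at 7.31 ± 1.32, MONO-MAC-6 at 3.88 ± 0.631, MV-4-11 at 3.71 ± 0.344, MOLM-13 at 2.98 ± 0.752, NB-4 at 0.245 ± 0.212, KASUMI-1 at 0.157 ± 0.0496 and F-36P at 0.0338 ± 0.0586 CPM. It spanned 2489-fold, the widest range of the members, although the lowest value rests on 2 reads in 3 libraries. 6 neighbouring pairs differed, OCI-AML2 over HL-60, HL-60 over THP-1, THP-1 over NOMO-1, NOMO-1 over OCI-AML3, OCI-AML3 over MONO-MAC-6 and MOLM-13 over NB-4.

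Etoposide raised HK3 in 8 lines, in 7 of them by more than 2-fold. In KASUMI-1 the untreated libraries held 0.152, 0.21 and 0.11 CPM and the etoposide libraries 3.803, 4.34 and 3.22 CPM (log2 fold change 4.53, SE 0.30, edgeR FDR 1.95e-06), but the untreated level there rests on 9 reads in 3 libraries, against 248 with etoposide, and that of NB-4 on 14, against 109. In both lines HK3 passed the filter on low counts through the etoposide libraries alone, so these tests could hardly give another direction. In the other 7 lines tested it rose in 6, in 5 of them more than 2-fold. MV-4-11 went from 3.62, 4.39 and 3.91 CPM to 27.4, 32.98 and 28.03 CPM (log2 fold change 2.89, SE 0.12, edgeR FDR 1.59e-14), and OCI-AML3 from 5.95, 7.47 and 8.704 CPM to 36.3, 41.05 and 50.99 CPM (log2 fold change 2.53, SE 0.17, edgeR FDR 1.63e-05). The groups did not overlap in these lines. NB-4 (2.67), MOLM-13 (2.37), MONO-MAC-6 (1.46) and NOMO-1 (1.38) also rose more than 2-fold, and THP-1 rose by 0.70 (FDR 0.00162). HL-60 gave 39.6, 26.1 and 39.5 CPM without and 44.8, 83.9 and 24.5 CPM with etoposide (log2 fold change 0.54, SE 0.31, edgeR FDR 0.195). Its etoposide libraries were thus 3.43-fold apart, and without replicate 3 of them HK3 passed (0.89, FDR 0.00762). In F-36P HK3 was too low to test, with 2 reads untreated and 28 with etoposide, a ratio of 14.2 with an exact 95% interval for counting error of 3.59 to 123. The rise was smaller than the mean of the other lines in HL-60 (-1.89, FDR 3.26e-07) and THP-1 (-1.70, FDR 2.4e-06).

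By share per kilobase of exon, HK2 made up 64.6% of the 3 hexokinases at the median of 10 untreated lines and 47.4% with etoposide. HK3 went from 2.76% to 19.2% and was higher in 10 of 10 lines, and HK1 went from 33.03% to 38.6%. The untreated share of HK3 rests on 2 reads in F-36P, 9 in KASUMI-1 and 14 in NB-4. The lines were unlike in makeup. In F-36P HK1 held 88.1% ± 0.361 to 87.8% ± 1.27 (SD, n = 3), and in NB-4 HK2 held 97.2% ± 1.57 to 84.8% ± 1.05. The gain of HK3 in percentage points was largest of the 10 lines in NOMO-1, from 9.12% ± 0.514 to 28.6% ± 0.937, while HL-60 went from 22.3% ± 4.68 to 38.9% ± 10.8 and MV-4-11 from 2.37% ± 0.285 to 19.7% ± 1.09. In OCI-AML2 the share of HK3 stayed within its spread, 31.7% ± 0.902 to 31.8% ± 2.68. By coding length the median for HK3 was 1.49% and 11.2%.

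**Figure D3:**
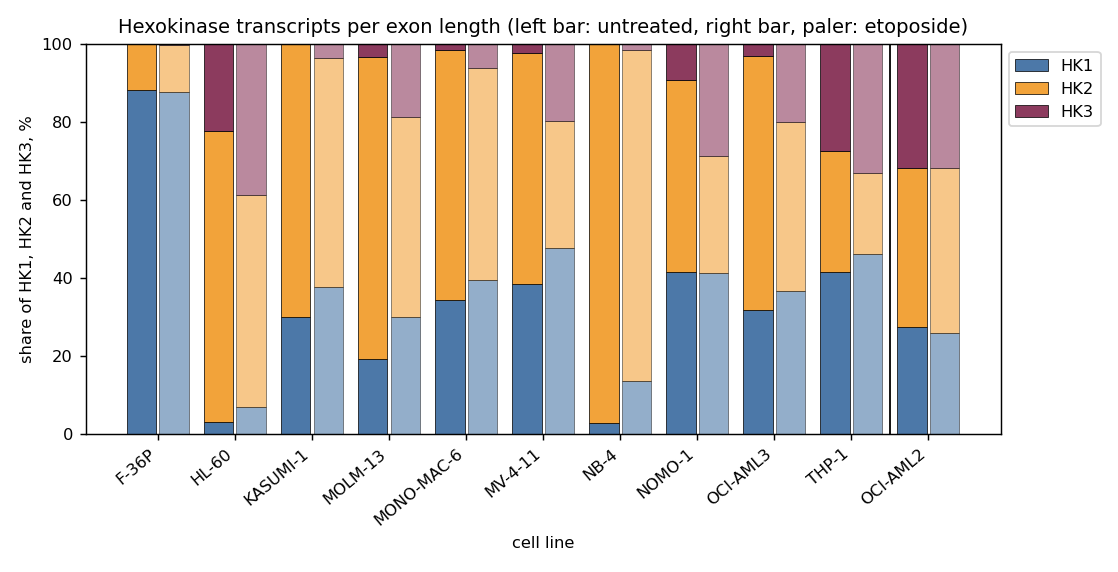
Share of HK1 (blue), HK2 (orange) and HK3 (purple) in their summed level per kilobase of exon, in percent, for each cell line, with untreated cells in the left bar and etoposide in the paler right bar (means of 3 libraries). HK2 makes up most of the untreated bar in 7 of the 10 lines left of OCI-AML2, and the purple part grows in all 10, though in F-36P only from 0.00594% to 0.178%.

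PFKFB3 encodes the form of the enzyme that favours the activator of phosphofructokinase and is known from proliferating cells. Its basal level was highest in OCI-AML3 with 113 ± 7.12 CPM (mean ± SD, n = 3), followed by NOMO-1 at 63.6 ± 2.25, KASUMI-1 at 63.5 ± 4.86, THP-1 at 57.5 ± 0.408, NB-4 at 53.5 ± 9.34, MOLM-13 at 50.9 ± 2.53, F-36P at 47.3 ± 5.08, OCI-AML2 at 47.02 ± 2.46, MONO-MAC-6 at 45.2 ± 3.44, HL-60 at 33.7 ± 2.804 and MV-4-11 at 18.1 ± 0.887 CPM. 3 neighbouring pairs differed, OCI-AML3 over NOMO-1, MONO-MAC-6 over HL-60 and HL-60 over MV-4-11.

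With etoposide PFKFB3 rose in 4 lines and fell in 2. It rose furthest in OCI-AML3, from 109, 120.2 and 113 CPM to 210.4, 222 and 255 CPM (log2 fold change 1.01, SE 0.09, edgeR FDR 5.89e-05). MOLM-13 rose from 46.2, 49.7 and 50.7 CPM to 83.01, 93.5 and 91.9 CPM (log2 fold change 0.87, SE 0.08, edgeR FDR 9.81e-06). NOMO-1 (0.43) and MV-4-11 (0.37) rose by less. It fell in NB-4 (-0.35, FDR 0.0179) and MONO-MAC-6 (-0.28, FDR 0.00527), and the fall in NB-4 was lost without untreated replicate 3 (FDR 0.0833). With the replicate number as a block, taken to pair the libraries of NB-4, it was -0.33 there (edgeR FDR 0.00305). In F-36P, HL-60, KASUMI-1 and THP-1 the values lay between -0.21 and 0.16 and did not pass. Against the mean of the other lines, OCI-AML3 (0.86, FDR 1.62e-09) and MOLM-13 (0.79, FDR 1.22e-08) were higher.

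PFKFB4, a relative that is known to respond to hypoxia, was highest before treatment in MONO-MAC-6 with 102 ± 12.1 CPM (mean ± SD, n = 3), followed by OCI-AML3 at 88.2 ± 9.07, NB-4 at 73.1 ± 30.7, NOMO-1 at 51.6 ± 8.45, MOLM-13 at 46.4 ± 17.6, MV-4-11 at 31.3 ± 2.92, HL-60 at 24.1 ± 5.34, F-36P at 19.5 ± 1.51, THP-1 at 15.2 ± 1.08, KASUMI-1 at 14.2 ± 3.85 and OCI-AML2 at 10.5 ± 0.205 CPM. Its replicates were widely spread and 2 neighbouring pairs differed, NB-4 over NOMO-1 and MOLM-13 over MV-4-11.

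PFKFB4 fell in 6 lines, in 5 of them by more than 2-fold, and rose in F-36P and THP-1. NOMO-1 held 58.3, 66.6 and 48.2 CPM untreated and 11.7, 9.66 and 13.6 CPM with etoposide, a 4.95-fold fall (log2 fold change -2.31, SE 0.15, edgeR FDR 2.97e-07). MONO-MAC-6 went from 92.2, 109.6 and 117 CPM to 25.6, 33.3 and 28.9 CPM (log2 fold change -1.86, SE 0.10, edgeR FDR 3.43e-08) and NB-4 from 44.3, 76.8 and 109.7 CPM to 16.98, 20.4 and 31.9 CPM (log2 fold change -1.73, SE 0.26, edgeR FDR 3.8e-05). The groups did not overlap in any of the 3, though the untreated NB-4 libraries differed by 2.48-fold among themselves. OCI-AML3 fell by 1.35 on the log2 scale (FDR 2.27e-05). The falls in HL-60 (-1.13, FDR 0.0131) and MOLM-13 (-0.90, FDR 0.0209) rested on widely spread replicates, and in MOLM-13 the groups overlapped. HL-60 was lost without untreated replicate 2 (FDR 0.0533) and MOLM-13 without untreated replicate 3 (FDR 0.103), and both in DESeq2 (adjusted p 0.109 and 0.0739). In MOLM-13, whose replicate numbers were taken to pair its libraries, the replicate number as a block gave -0.89 (edgeR FDR 9.63e-06). The rises in F-36P (0.55, FDR 0.00938) and THP-1 (0.43, FDR 0.0314) were lost without untreated replicate 2 in F-36P (FDR 0.0547) and without each untreated replicate in THP-1 (FDR up to 0.135).

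As a share of the PFKFB pair per kilobase of exon, PFKFB3 went from a median of 55.8% in untreated lines to 74.8% with etoposide, higher in 7 lines and lower in 3. NOMO-1 went from 55.3% ± 3.23 to 89.2% ± 1.46 (SD, n = 3), OCI-AML3 from 56.2% ± 1.08 to 86.8% ± 0.308 and MONO-MAC-6 from 30.7% ± 1.02 to 57.1% ± 2.83. In MONO-MAC-6 both genes fell, PFKFB4 (log2 fold change -1.86) further than PFKFB3 (-0.28). In F-36P (70.7% ± 1.08 to 59.9% ± 3.31), KASUMI-1 (81.8% ± 3.94 to 74.8% ± 0.753) and THP-1 (79.03% ± 1.097 to 74.8% ± 1.38) the share went down. MV-4-11 moved little, 36.7% ± 1.18 to 40.3% ± 1.398.

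PKM was, with LDHA, the most abundant member per kilobase of exon, at 72.7 to 333 CPM per kilobase in untreated lines. The order of its level was led by MONO-MAC-6 with 2856 ± 67.3 CPM (mean ± SD, n = 3), followed by F-36P at 2032 ± 266, NOMO-1 at 1756 ± 39.01, OCI-AML3 at 1689.5 ± 71.6, OCI-AML2 at 1574 ± 44.9, NB-4 at 1366 ± 90.6, MOLM-13 at 1177 ± 28.9, HL-60 at 1054 ± 133, MV-4-11 at 783 ± 33.9, THP-1 at 697 ± 13.5 and KASUMI-1 at 623 ± 42.5 CPM. 5 neighbouring pairs differed, MONO-MAC-6 over F-36P, F-36P over NOMO-1, OCI-AML2 over NB-4, NB-4 over MOLM-13 and HL-60 over MV-4-11. With etoposide it fell in NOMO-1, from 1929, 2004 and 1954 CPM to 1504, 1292 and 1377 CPM (log2 fold change -0.50, SE 0.08, edgeR FDR 0.000287), in F-36P (-0.48, FDR 0.00434) and in NB-4 (-0.38, FDR 0.00126). Under library size alone the falls in F-36P (-0.24, FDR 0.136) and NB-4 (-0.17, FDR 0.0898) did not pass. THP-1 gave 708, 712 and 729.6 CPM and 834, 1028 and 809 CPM (log2 fold change 0.31, SE 0.12, edgeR FDR 0.0522), and it passed without each etoposide replicate in turn (FDR 0.0208 to 0.041). In the other 6 lines the groups overlapped, with values from -0.16 to 0.07.

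LDHA varied less between untreated lines than any other member, 2.87-fold from the highest to the lowest. It was highest in NB-4 with 2377 ± 183 CPM (mean ± SD, n = 3), followed by OCI-AML3 at 1681 ± 22.9, MONO-MAC-6 at 1678 ± 23.9, MV-4-11 at 1509 ± 76.3, MOLM-13 at 1301 ± 58.8, NOMO-1 at 1139 ± 50.1, F-36P at 1134 ± 72.5, OCI-AML2 at 1106 ± 46.8, THP-1 at 991 ± 60.8, HL-60 at 977 ± 79.2 and KASUMI-1 at 827 ± 33.1 CPM. 6 neighbouring pairs differed, NB-4 over OCI-AML3, MONO-MAC-6 over MV-4-11, MV-4-11 over MOLM-13, MOLM-13 over NOMO-1, OCI-AML2 over THP-1 and HL-60 over KASUMI-1.

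With etoposide LDHA fell in 10 of 10 lines, in 8 of them by more than 2-fold, and in each line every etoposide library lay below every untreated library. F-36P held 1063, 1252 and 1296 CPM untreated and 410.2, 387 and 371 CPM with etoposide, a 3.09-fold fall (log2 fold change -1.63, SE 0.11, edgeR FDR 3.14e-06). MONO-MAC-6 went from 1762, 1719 and 1757 CPM to 658, 642 and 663 CPM (log2 fold change -1.42, SE 0.04, edgeR FDR 1e-10) and NB-4 from 2380.1, 2379 and 2739.6 CPM to 943, 909.8 and 1143 CPM (log2 fold change -1.32, SE 0.10, edgeR FDR 4.23e-08). MV-4-11, NOMO-1, KASUMI-1, MOLM-13 and OCI-AML3 fell by 1.00 to 1.25 on the log2 scale. HL-60 fell by less, from 1118, 951 and 1076 CPM to 750.1, 708 and 542 CPM (log2 fold change -0.65, SE 0.11, edgeR FDR 0.000837). THP-1 had the smallest fall, from 977, 1094 and 985 CPM to 786, 773 and 849 CPM (log2 fold change -0.34, SE 0.11, edgeR FDR 0.0251), and its call was lost without each untreated replicate or etoposide replicate 1, with an FDR of 0.0537 to 0.178. Both lines differed from the mean of the other 9, THP-1 by 0.88 (FDR 3.09e-09) and HL-60 by 0.53 (FDR 0.000168). F-36P (-0.54, FDR 3.65e-05) and MONO-MAC-6 (-0.36, FDR 0.0112) fell further than the others.

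PDK1 was highest before treatment in NB-4 with 94.4 ± 21.4 CPM (mean ± SD, n = 3), followed by HL-60 at 79.5 ± 5.03, OCI-AML3 at 71.95 ± 3.92, KASUMI-1 at 64.2 ± 5.73, OCI-AML2 at 57.9 ± 2.71, F-36P at 54.9 ± 4.27, NOMO-1 at 44.5 ± 3.42, MV-4-11 at 39.5 ± 6.44, MONO-MAC-6 at 36.2 ± 2.42, MOLM-13 at 35.5 ± 3.68 and THP-1 at 17.6 ± 2.95 CPM. 2 neighbouring pairs differed, F-36P over NOMO-1 and MOLM-13 over THP-1, so THP-1 stood alone below the rest as it did for HK2 and SLC2A3. Its exons add up to 14845 bases, of which 1372 are coding, which lowers its level per kilobase of exon.

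PDK1 fell with etoposide in 9 of 10 lines. The fall was largest in MONO-MAC-6, where 35.6, 37.01 and 40.5 CPM became 8.61, 7.76 and 8.65 CPM, 4.51-fold lower (log2 fold change -2.17, SE 0.08, edgeR FDR 2.19e-09). NB-4 went from 84.5, 87.4 and 126 CPM to 29.96, 29.7 and 32.6 CPM (log2 fold change -1.69, SE 0.13, edgeR FDR 7.02e-08) and OCI-AML3 from 68.5, 75.1 and 73.9 CPM to 34.4, 30.9 and 30.5 CPM (log2 fold change -1.18, SE 0.08, edgeR FDR 1.81e-05). KASUMI-1 fell by 1.02 and the 5 lines F-36P, HL-60, MOLM-13, NOMO-1 and MV-4-11 by 0.70 to 0.93 on the log2 scale. In these 9 lines the groups did not overlap, and no call was lost under any alternative run. THP-1, with 16.3, 21.7 and 16.4 CPM and 16.2, 12.9 and 17.4 CPM, had overlapping groups and no call (log2 fold change -0.22, SE 0.16, edgeR FDR 0.302). MONO-MAC-6 (-1.32, FDR 6.53e-10) and NB-4 (-0.73, FDR 3.79e-05) fell further than the mean of the other lines, and THP-1 (0.90, FDR 2.68e-06) differed upward.

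**Figure D4:**
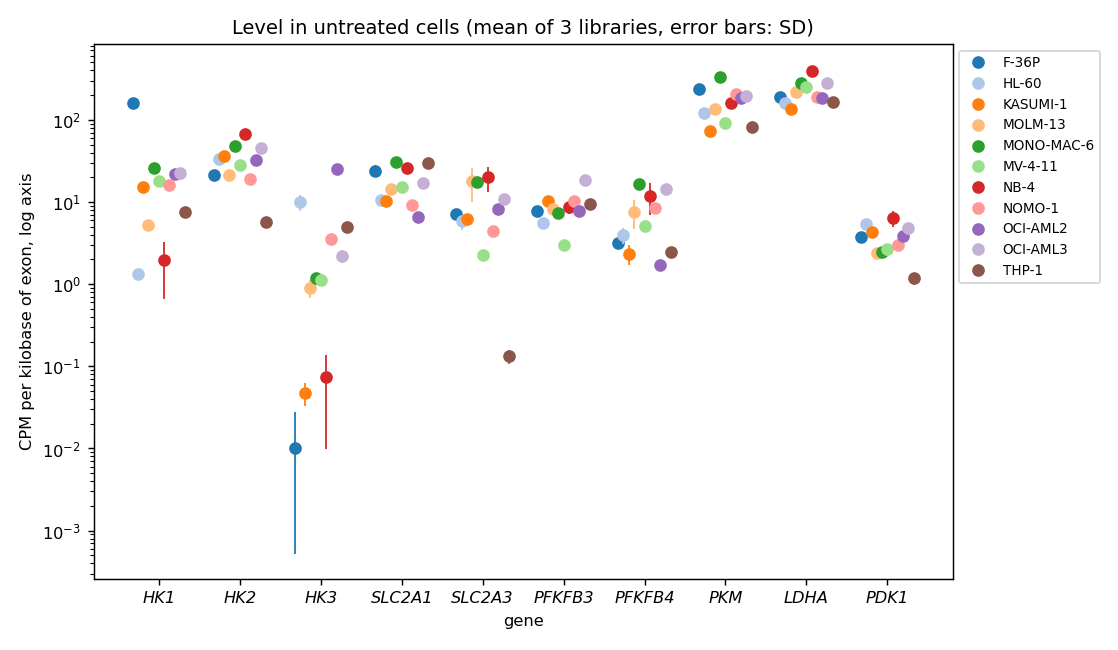
Level of each gene in untreated cells, in CPM per kilobase of exon on a log axis, as the mean of 3 libraries with the SD, with a colour for each of the 11 cell lines. HK3, HK1 and SLC2A3 spread widest, with F-36P far above the rest for HK1 and THP-1 far below for SLC2A3, while LDHA points lie within 2.87-fold.

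Cell line by cell line, NB-4 and MONO-MAC-6 had the most members falling, 8 of 10 each, with 2 and 1 rising. Of all genes 31% and 28.7% rose and fell in NB-4, and 31.8% and 30.5% in MONO-MAC-6. In F-36P 6 of 9 tested members fell and 2 rose (all genes: 25% falling and 35% rising), and in NOMO-1 6 fell and 2 rose (all genes: 23.9% falling and 28.8% rising). KASUMI-1, HL-60 and OCI-AML3 had 5 members falling each, and 1, 1 and 2 rising. All genes rose and fell there at 31.5% and 28.6% in KASUMI-1, 17.5% and 15% in HL-60 and 22.4% and 17.7% in OCI-AML3. In MOLM-13 4 rose and 4 fell (all genes: 28.1% and 28.1%) and in MV-4-11 3 rose and 4 fell (all genes: 33.5% and 30.4%). THP-1 was alone in having more members that rose (4) than fell (1), with 16.1% and 16% of all genes rising and falling. The summed level of the 10 members went from 2136 to 2168 CPM in THP-1, and from 4934 to 2556 CPM in NB-4, a sum led by PKM and LDHA. OCI-AML2 had no member that rose or fell. There, 0.0221% of 13604 genes passed. Of its 10 members 2 had an unadjusted edgeR p below 0.05, none passed in DESeq2, and the log2 fold changes lay between -0.09 and 0.36.

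With each line counted as 1 value, 1 member rose and 4 fell over the 10 lines, against 20.1% and 14.2% of 19974 genes. These were HK3 (mean log2 fold change 2.05, SE 0.34, n = 10 cell lines, limma FDR 0.00188), LDHA (mean log2 fold change -1.10, SE 0.16, n = 10 cell lines, limma FDR 0.00127), PDK1 (mean log2 fold change -0.98, SE 0.18, n = 10 cell lines, limma FDR 0.00258), HK2 (mean log2 fold change -0.86, SE 0.12, n = 10 cell lines, limma FDR 0.00127) and SLC2A1 (mean log2 fold change -0.54, SE 0.19, n = 10 cell lines, limma FDR 0.0458). LDHA, PDK1 and HK2 were lower in 10 of 10 lines and HK3 higher in 10 of 10, of which F-36P has too few reads of HK3 for a test of its own. In KASUMI-1 and NB-4 HK3 passed the filter on low counts through the etoposide libraries alone. Untreated HK3 rests on 2 reads in F-36P, 9 in KASUMI-1 and 14 in NB-4, so their log2 fold changes depend on the prior count of 2. The size of the HK3 mean is therefore uncertain. In the other 7 lines HK3 rose in 6 by the test of each line. SLC2A1 was lower in 7 of 10 and lost its call without F-36P (FDR 0.0801), without replicate 1 (FDR 0.0564) or without replicate 3 (FDR 0.0589), and also when scaled by RLE (FDR 0.0556) or by library size alone (FDR 0.0601). PFKFB4 averaged -0.76 (FDR 0.0666) and passed without F-36P (-0.91, FDR 0.0387). HK1, SLC2A3, PFKFB3 and PKM had means between -0.10 and 0.22. All 10 members differed in response among the lines by the interaction test, as did 74.5% of all genes.

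The rest of the pathway was read from 5 lists of other genes, chosen with earlier results of these data known. Their shares beside those of all genes are thus a description. Of the 13 genes of core glycolysis, the enzymes between hexokinase and pyruvate kinase with the liver pyruvate kinase PKLR, 121 gene and line pairs were tested, of which 10 rose and 86 fell (71.1%, against 24.4% of all genes). Their median log2 fold change was -0.52, against 0.01 for all genes. GPI, ALDOA, TPI1, GAPDH, PGK1, PGAM1 and ENO1, each an enzyme of a separate step, fell in 9 of 10 lines. PGK1, which makes the first ATP of the pathway, had a median of -0.77 and a range of -1.75 to -0.17, and fell more than 2-fold in 4 lines. ALDOA, a main aldolase, had a median of -0.55 and GAPDH of -0.49, and neither passed 2-fold in any line. ALDOC, another aldolase, fell in 8 lines, in 6 of them more than 2-fold, and rose in 2 (range -2.20 to 1.44). In THP-1 the listed enzymes mostly did not pass, with 1 of 12 falling.

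Of the 15 genes that handle pyruvate and lactate, 64 of 142 pairs fell and 28 rose (19.7% rising, 45.1% falling, against 27.7% and 24.4% of all genes). DLAT, a subunit of pyruvate dehydrogenase, fell in 10 of 10 lines (median -0.82, range -1.14 to -0.43), and PDHB, another subunit, in 9 (-0.68 to -0.16). PDP2, a phosphatase that reactivates the complex, fell in 9 (median -0.68). MPC2, a subunit of the mitochondrial pyruvate carrier, rose in 8 (median 0.50). PDK4, a kinase of the same family as PDK1, was tested in 4 lines and rose in 3, from 3.401 ± 0.206 to 6.79 ± 0.979 CPM in OCI-AML3, from 3.22 ± 0.552 to 6.003 ± 2.49 CPM in THP-1 and from 0 CPM in all 3 untreated libraries to 3.64 ± 0.92 CPM in F-36P. In F-36P it entered the test through the etoposide libraries alone, which leaves 2 rises in 3 other lines.

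Of the other members of the transporter, hexokinase and PFKFB families, 29 of 54 tested pairs rose and 8 fell (53.7% and 14.8%), against 27.7% and 24.4% of all genes. The other 66 of their 120 pairs were too low to test, and 4 of the 29 rises passed the filter on low counts through the etoposide libraries alone. SLC2A6, which encodes a transporter of leukocytes, rose in 7 of 8 lines tested, in 6 of them more than 2-fold (median 1.46). PFKFB2 rose in 7 of 8, in 5 of them more than 2-fold (median 1.44). SLC2A14, the near-identical copy of SLC2A3, rose more than 2-fold in 4 of 7 lines tested and fell in 2. In NB-4, where it rose, SLC2A14 passed the filter on low counts through the etoposide libraries alone. In MOLM-13 SLC2A14 went from 7.04 ± 0.142 to 18.4 ± 2.03 CPM while SLC2A3 had -0.63.

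Of the regulators, 45 of 112 pairs rose and 24 fell (40.2% rising, 21.4% falling, against 27.7% and 24.4% of all genes). Of these, 2 rises passed the filter on low counts through the etoposide libraries alone and 2 falls through the untreated libraries alone. MYC, a transcription factor that drives glycolytic genes, fell in 10 of 10 lines, in 6 of them more than 2-fold (median -1.72, range -3.75 to -0.56). EGLN1, an oxygen sensor that marks HIF1A protein for decay, fell in 8 (median -0.42). HIF1A itself rose in 3 lines, MONO-MAC-6, MV-4-11 and NOMO-1, with a median of 0.27 and a range of -0.23 to 0.75, and EPAS1, its relative, rose in 7, in 5 of them more than 2-fold, and fell in 1. TXNIP, which restrains glucose uptake, rose in 7 lines and fell in F-36P (median 0.89), and its relative ARRDC4 rose in 8 of 9 (median 1.02). TIGAR, a p53 target that lowers the activator of phosphofructokinase, rose in 8 of 10 lines (median 0.72, range -0.19 to 1.78), and in F-36P it passed the filter on low counts through the etoposide libraries alone. Among 12 hypoxia-responsive genes outside glycolysis 46 of 104 pairs fell and 26 rose (25% rising, 44.2% falling, beside the same shares of all genes). Here 1 rise passed the filter on low counts through the etoposide libraries alone and 1 fall through the untreated libraries alone. P4HA1 (a collagen hydroxylase) fell in 8 lines, and BNIP3 (a mitophagy receptor) and ANKRD37 each fell more than 2-fold in 6. The medians of these 3 genes were -0.53, -1.17 and -1.08.

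**Figure D5:**
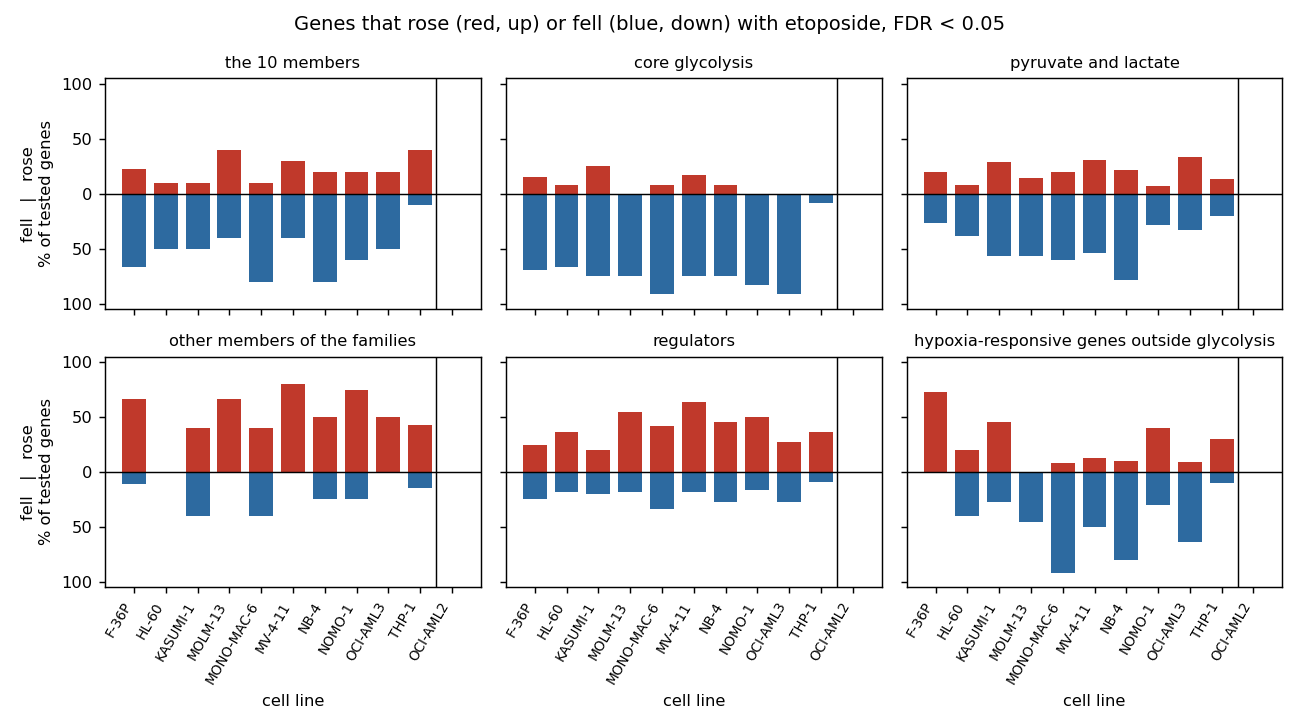
Percent of the tested genes of each list that rose (red, upward) or fell (blue, downward) with etoposide at an FDR below 0.05 in each cell line, with OCI-AML2 right of the line. Core glycolysis falls in the 9 lines from F-36P to OCI-AML3 and in 1 of 12 genes in THP-1, and OCI-AML2 has no bar in any panel.

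The genes most like each member were sought by Pearson's r across cell lines, as a description over few points and with 13669 genes for the untreated level and 14074 for the response. Few of them were stable. Of 30 by untreated level 7 were also found by Spearman's rho and 14 without F-36P, and of 30 by response 2 and 10. Over the 11 untreated lines the nearest were, for LDHA, ZDHHC5 (0.89), GPR3 (0.89) and ERRFI1 (0.88), and for HK2 SEC23A (0.95), MYO9A (0.91) and DCAF1 (0.90). For HK1 they were FAM210B (0.92), YOD1 (0.92) and MAP4K4 (0.92), for HK3 BTBD9 (0.91), PIGM (0.90) and PELI2 (0.89), for SLC2A1 MANBAL (0.91), SCAMP3 (0.89) and SNRPA1 (0.88) and for SLC2A3 ABCF1 (0.95), NUP153 (0.91) and MPI (0.91). PFKFB3 was nearest to SELENOW (0.87), SEPTIN5 (0.85) and GUSBP18 (0.85), PFKFB4 to NR4A1 (0.89) and FNBP1 (0.89), PKM to NCOA3 (0.94), CREBBP (0.92) and METTL6 (0.92) and PDK1 to SINHCAF (0.95), PLAGL2 (0.93) and PABPC1L (0.93). Over the 10 responses LDHA was nearest to VDAC2 (0.95), VDAC1 (0.94) and GUF1 (0.92), HK2 to EIF4HP1 (0.94), PRPF6 (0.93) and CS (0.93) and PDK1 to CHSY1 (0.96), MXI1 (0.94) and ADIPOR2 (0.93). HK1 was nearest to RNF130 (0.97), COX4I1 (0.95) and ITFG2 (0.95), HK3 to RPAP3-DT (0.95), ADGRL1-AS1 (0.95) and TMUB2 (0.94), SLC2A1 to GIGYF2 (0.97), CMIP (0.95) and ANGEL1 (0.95) and SLC2A3 to MACROD2 (0.91), CDC42EP1 (0.91) and STAMBPL1 (0.90). PFKFB3 was nearest to SMIM30 (0.93), ERLIN2 (0.92) and LINC00477 (0.92), PFKFB4 to ALKBH5 (0.93), ZNF774 (0.91) and RORB (0.90) and PKM to NBPF19 (0.89), SDHA (0.88) and YWHAB (0.88). No member was among the nearest 3 of another. Between members the highest r was 0.85 for the untreated level, for HK2 with SLC2A3, and 0.79 for the response, for HK2 with PKM, followed by 0.77 for HK2 with LDHA.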

How the data were processed

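The libraries were made with a stranded TruSeq mRNA kit. Per the methods of the study, the authors used GRCh38.p7 with the genes of GENCODE release 25 as the target of STAR 2.5.3a and compared groups with edgeR 3.20.1, and the submitters' processing notes also name FastQC 0.11.5. The deposited files hold raw counts of reads per gene, 1 file per library, in whole numbers. Of 58037 identifiers, 45 copies on chromosome Y with 0 reads were left out, and 56948 were named by GENCODE release 44. The strand setting of the counting is not given in the sources used here. Of 178 genes inside opposite-strand exons of strongly expressed genes, 50 had a mean of at least 1 read per library and the others fewer.

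The 10 members and the lists of other genes were chosen with earlier results of these data known. Each cell line was fitted apart with edgeR 4.0.16 in R 4.3.3 (TMM scaling, filterByExpr at 10 reads and 15 in total, quasi-likelihood test), and p-values were adjusted over all genes tested by Benjamini-Hochberg. Basal levels came from 1 fit of 33 untreated libraries, and differences in response from 1 fit of 60 libraries. The mean response used limma 3.58.1 on 1 log2 fold change per line (prior count of 2), and likeness was computed on genes averaging 1 CPM or more, with a pseudocount of 1 for basal levels, and 1 of the genes it found is not reported here. CPM of a response were scaled within a line and those of basal levels over the untreated libraries, so the same libraries differ slightly between both. Lengths were the union of exons in GENCODE release 44. Genes of the lists were named where they rose or fell in at least 8 of 10 lines, or more than 2-fold in at least 4, in 1 direction, with TIGAR, TXNIP, HIF1A, PDK4 and MYC named whatever their values.

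Replicates differed by more than sampling noise (lowest chi-square per degree of freedom 2.12). The labels give replicate numbers but no pairing. The numbers were taken to pair the libraries where same-numbered libraries deviated together in each of 3 pairs with a correlation above 0.1. This held in NB-4, MOLM-13, OCI-AML2 and MONO-MAC-6, in the last with a lowest correlation of 0.104. Alternatives covered scaling (RLE, library size alone), the filter on low counts, DESeq2 1.42.0, the replicate block, 1 fit of all libraries and each library left out. Fits restricted to protein-coding genes and totals without F-36P or without KASUMI-1 were added after seeing the data. The scripts were tested on simulated counts. Counting intervals cover counting error alone.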

Additional observations from a re-analysis of the deposited data

Results flagged for a closer look

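The response to etoposide differed among the 10 cell lines for each of the 10 members, by a test of the cell line and etoposide interaction with 9 degrees of freedom (edgeR FDR below 0.05). The F value was 42.99 for SLC2A1, 23.8 for PFKFB3 and 20.9 for SLC2A3. It was 17.4 for PDK1, 16.6 for PFKFB4 and 16.6 for HK1, and 14.6 for HK3. LDHA gave 14.3, HK2 10.6 and PKM 7.402. The same test passed for 74.5% of all genes. SLC2A1, SLC2A3, HK1, PFKFB3 and PFKFB4 rose in some lines and fell in others, while LDHA, HK2 and PDK1 fell in each line in which they passed and HK3 rose in each.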

How the results depend on the processing

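Of the values of a member in a line or over lines computed under the alternatives, 1506 kept their side of the threshold, among them 21 uncalled values whose sign changed, 42 lost the call, 35 gained one and 0 changed direction while called. The counts of pairs stayed within 1.5 times, with 20 to 24 rising and 48 to 53 falling when each library was left out in turn, and 9 to 11 and 22 to 26 more than 2-fold. Library size alone moved the median log2 fold change of all genes by -0.0139 in MOLM-13 to 0.246 in F-36P, above 0.1 in 6 lines, and 3 uncalled values changed sign (PFKFB3 in F-36P, PKM in KASUMI-1 and OCI-AML3). With the replicate number as a block 23 pairs rose and 53 fell. In the lines whose numbers were taken to pair the libraries, the block changed no call but that of SLC2A3 in MOLM-13. It also passed PFKFB4 in MV-4-11, which missed the rule for pairing with a lowest correlation of 0.0767. Members that differed from the mean of the other lines numbered 37 to 48 pairs without 1 replicate number, and neighbours in basal level 32 to 42. Over lines, 3 to 4 members fell and 1 rose. The most alike genes were the least stable. Of 30 found by untreated level, 7 were also found by Spearman's rho and 14 without F-36P, and of 30 found by response 2 and 10. HK3 in F-36P, at 2 and 28 reads, sets the limit of depth.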

Other observations

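The genes in this and the next paragraph were chosen after their values were seen. PFKM, the muscle form of phosphofructokinase, moved in opposite directions, from 1.998 ± 0.338 to 8.47 ± 1.14 CPM in KASUMI-1 (log2 fold change 2.08, edgeR FDR 8.15e-06) and from 67.4 ± 2.47 to 31.6 ± 4.17 CPM in NOMO-1 (log2 fold change -1.09, edgeR FDR 5.86e-06). It rose in 3 lines and fell in 4. ENO2, an enolase known from neurons, rose in 4 lines and fell in 3, among them from 29.1 ± 6.095 to 125 ± 15.6 CPM in F-36P (log2 fold change 2.10, edgeR FDR 6.36e-06) and from 18.5 ± 2.36 to 4.57 ± 0.397 CPM in OCI-AML3 (log2 fold change -2.02, edgeR FDR 1.41e-05), while ENO1 fell in 9. PDK2, a kinase of pyruvate dehydrogenase like PDK1, rose in 7 of 9 lines, for example from 14.2 ± 1.45 to 32.5 ± 3.29 CPM in MV-4-11 (log2 fold change 1.19, edgeR FDR 6.43e-10), where PDK1 fell by 0.93. SLC2A5, the fructose transporter, fell more than 2-fold in MONO-MAC-6, NB-4 and NOMO-1 and rose from 17.4 ± 2.28 to 31.7 ± 2.55 CPM in MV-4-11 (log2 fold change 0.86, edgeR FDR 8.22e-08).

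VEGFA, a growth factor that responds to hypoxia, rose in 6 lines and fell in 4, and went from 13.2 ± 1.57 to 119 ± 8.63 CPM in THP-1 (log2 fold change 3.18, edgeR FDR 5.33e-11), the line in which HK2 and PDK1 did not pass. DDIT4, a stress gene, rose in 5 lines and fell in 1, from 11.4 ± 2.34 to 85.5 ± 13.7 CPM in THP-1 (log2 fold change 2.91, edgeR FDR 8.76e-10).

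Of the groups of 3 replicates of a member, 8 had a highest library above 2-fold the lowest. They were HK3 (9.67-fold), HK1 (4.68-fold), PFKFB4 (2.48-fold) and SLC2A3 (2.01-fold) in untreated NB-4, SLC2A3 (2.64-fold) and PFKFB4 (2.22-fold) in untreated MOLM-13, and PFKFB4 (3.55-fold) and HK3 (3.43-fold) in etoposide-treated HL-60. No such ratio can be given for HK3 in untreated F-36P, with 0 to 0.111 CPM and 2 reads in all. In untreated NB-4 replicate 1 was the lowest and replicate 3 the highest for HK1, HK2, SLC2A1, SLC2A3, PFKFB3, PFKFB4 and PDK1. This order did not hold for HK3, PKM and LDHA.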
